A study of Arabidopsis thaliana with 16 samples.

Results

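The 6 arrays described here measured shoots of Arabidopsis thaliana seedlings 4 h after the DELLA protein rga-delta17 was switched on, and shoots of the same line given gibberellin alone. They were chosen by title, as the 3 arrays of the Dex-rga(delta17) line at 4 h with GA4+DEX and the 3 with GA4, out of 16 arrays in the series. rga-delta17 is a dominant DELLA form that gibberellin does not act on, and in this line, called the rga line here, dexamethasone (DEX, a synthetic steroid) turns on its expression. Seedlings of ecotype Ler were 8 days old and had a first spray of GA4, an active gibberellin, at 2 µM and 16 h ahead of the experiment. On the day they received 2 µM GA4 (mock) or 2 µM GA4 and 10 µM DEX, so every group, controls included, had received GA4. Beside these stand 3 mock and 3 DEX arrays of the rga line at 2 h, and 2 mock and 2 DEX arrays at 4 h of a line that carries the vector without rga-delta17, called the vector line. The labels do not say how many transformants each line stands for or whether replicates were grown apart, so the p-values measure the spread between these arrays, which may be technical.

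DELLA proteins are nuclear repressors of gibberellin responses. When gibberellin binds a GID1 receptor, the receptor takes hold of the DELLA protein, the F-box protein SLY1 marks it for destruction, and growth genes are released. Genes for gibberellin receptors are known to be more active when DELLA activity is high, a feedback in the pathway, and in shoots DELLA proteins hold back cell elongation.

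The signal of each probe set is an intensity in arbitrary units, scaled to a 2% trimmed mean of 500.05 on each array, and values below a floor of 8 were raised to 8 before log2 was taken. Replicate arrays of the 2 groups at 4 h correlated at 0.959 to 0.967, and mock arrays correlated with DEX arrays at 0.952 to 0.964. The 2 DEX arrays of the vector line stood apart, correlating at 0.863 to 0.919 with the other 14, which correlated at 0.934 to 0.974 among themselves. Their 25S ribosomal RNA control read 12500 and 13100, against 422 and 526 in vector mock and 391 to 1590 in the rga line at 4 h. Of the 12 shoot markers listed only RCA, the gene of Rubisco activase, had a named probe set, at 20007 in mock and 19141 with DEX. Of the 12 root markers 3 were measured and none was called: PYK10, a beta-glucosidase gene of roots, read 6465 and 6902, and the root hair expansin genes EXPA7 and EXPA18 read 88.2 and 140 in mock.

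The 4 h DEX arrays of the rga line read higher than mock for 2 of the 3 gibberellin receptor genes measured. They read lower for the expansin-like gene EXLA1 and the auxin-conjugating gene GH3.3. All 6 putative DELLA targets measured were higher, on a list the study drew up from these samples. In the vector line, without rga-delta17, EXLA1 and GH3.3 fell further, with log2 changes of -3.07 and -3.86. Of the 6 targets, GID1B and IQD22 also rose there and 4 fell. For the rga line at 4 h, 688 (3.02%) of 22746 probe sets tested were called at an adjusted p below 0.05, with 515 higher (2.26%) and 173 lower (0.761%). The rises had a median log2 change of 0.86, with 218 of them (42.3%) at least 2-fold, and the falls a median of -0.58, with 31 (17.9%) at least 2-fold. Over all probe sets the median was -0.02. In every called probe set the 3 DEX arrays lay wholly above or below the 3 mock arrays, which over all probe sets was so for 8.53% (above) and 9.1% (below). The calls rest on these same arrays, so that separation is largely built in and adds no support to them.

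The count of calls depended on how the spread was estimated. Fitting the 6 arrays alone gave 247 calls, of which 207 were shared with the fit of all 16 arrays. In that smaller fit 35 of the 66 called genes and probe sets described here lost their call, among them GID1A, XERICO, AT2G31730, GH3.3, EXLA1, IAA20, LBD16, COR47, AT1G30700, AT4G13230, AT3G26450, AT1G04800, AT3G62820, AT2G05540, WRKY6 and AT5G10120, while GID1B, AT5G50915, IQD22, MYBC1, BGLU45, BHLH101, ALDH7B4, XTH32 and GI did not. Leaving out DEX replicate 1 gave 395 and leaving out DEX replicate 3 gave 444. In whole shoots, fewer cells of a type and less RNA per cell cannot be told apart. A symbol or locus was listed for 247 of the rises and 73 of the falls, so most called probe sets are unnamed here.

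**Figure D1:**
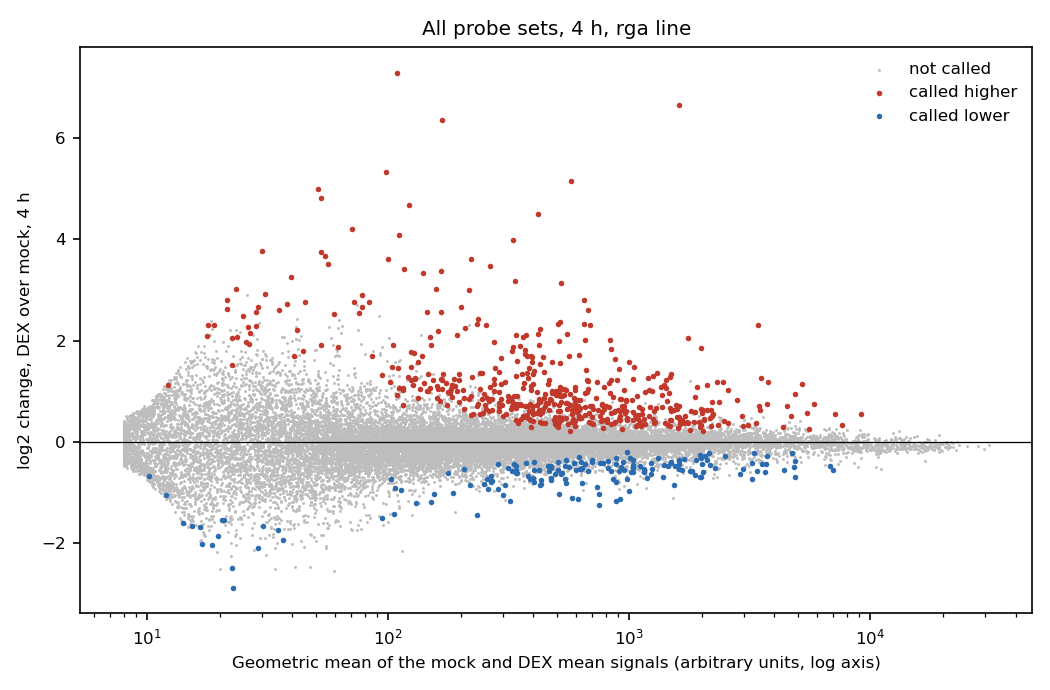
Each point is a probe set of the 4 h comparison in the rga line, placed by the geometric mean of its mock and DEX mean signals (arbitrary units, log axis) and its log2 change. The 515 probe sets called higher (red) and 173 called lower (blue) lay mostly among the brighter probe sets, with 6.13% of the 4549 brightest called and 0.418% of the 4550 dimmest.

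The gibberellin receptor genes GID1A and GID1B rose. GID1B read 176, 260 and 216 on the mock arrays and 872, 637 and 938 with DEX. GID1A, which encodes another of the receptors, read 574, 453 and 518 in mock and 907, 757 and 819 with DEX. In both genes all 3 DEX arrays lay above all 3 mock arrays. The log2 change was 1.91 ± 0.18 (SE, adjusted p = 5.84e-05) for GID1B and 0.69 ± 0.11 (adjusted p = 0.0054) for GID1A. The third receptor gene, GID1C, read 151, 165 and 145 in mock and 129, 163 and 145 with DEX, a log2 change of -0.08 ± 0.15 (adjusted p = 0.896). Its groups overlapped.

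The other measured members of gibberellin perception and DELLA signalling were not called. SLY1, the F-box gene that takes DELLA proteins to destruction, changed by a log2 value of 0.17 ± 0.12, and SLY2, a related F-box gene, by 0.12 ± 0.24. SPY and SEC, the genes of a pair of enzymes that attach sugars to nuclear proteins including DELLA proteins, gave 0.16 ± 0.08 and 0.34 ± 0.11. For SEC the adjusted p was 0.165, but 0.0118 without DEX replicate 2, the one DEX array among its mock values at 599. Of the 12 genes listed 7 were measured, 2 higher and none lower, with a median of 0.17. Over all probe sets 2.26% were higher and 0.761% lower, and 7 genes are too few to set against those shares. The lists of gibberellin synthesis, jasmonate and brassinosteroid genes had no named probe set and were not analysed here.

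Among the putative DELLA targets, a list that the study drew up from these samples and that is not independent evidence of direction, 6 of 13 were measured and all 6 were called higher, with a median log2 change of 1.09. GID1A and GID1B are on both lists. AT5G50915, which the study listed as a bHLH transcription factor gene, read 174, 173 and 144 in mock and 767, 653 and 706 with DEX. Its DEX arrays were at similar levels and far above mock, a log2 change of 2.12 ± 0.17 (adjusted p = 2.72e-05). IQD22, of a family of calmodulin-binding proteins, went from 182, 254 and 211 to 526, 472 and 590, by 1.30 ± 0.16.

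XERICO, a RING-type gene known for raising abscisic acid levels, went from 205, 272 and 213 to 391, 433 and 323, a change of 0.74 ± 0.14. Its adjusted p was 0.0108, and the call was lost without DEX replicate 1. AT2G31730, also listed by the study as a bHLH gene, read 159, 131 and 166 in mock and 295, 254 and 283 with DEX, a change of 0.87 ± 0.15.

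**Figure D2:**
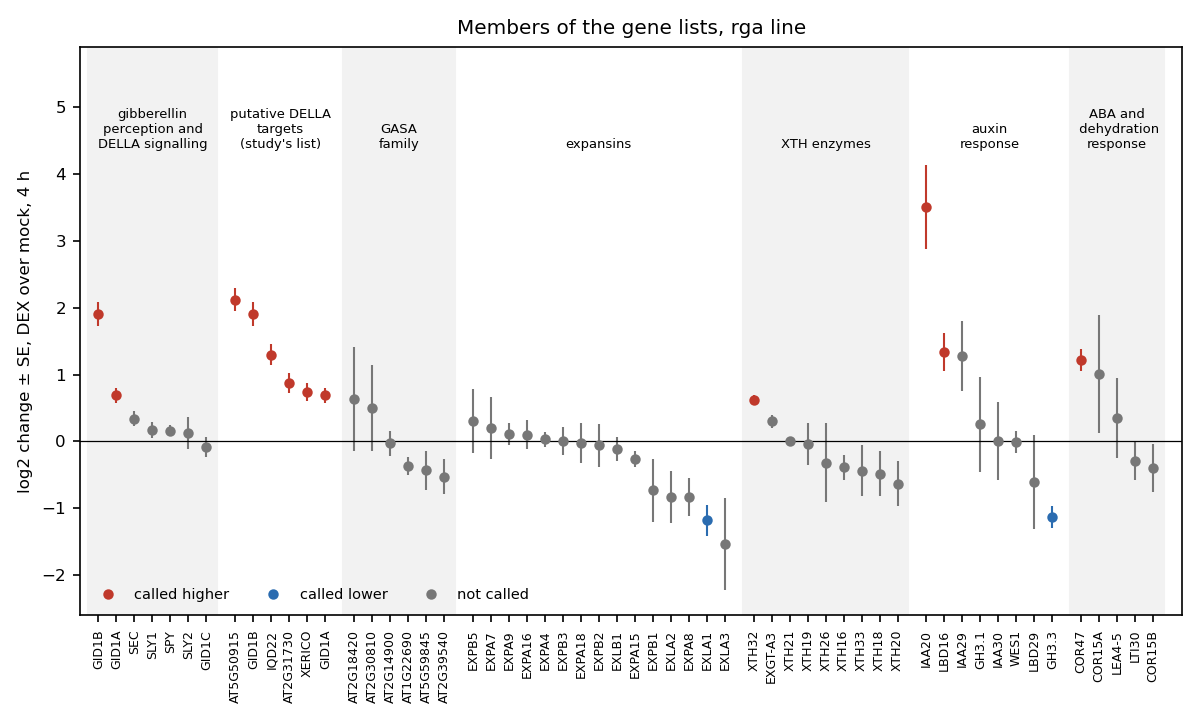
Points give the log2 change at 4 h in the rga line with its SE for each measured member of 7 gene lists, red where called higher, blue where called lower and grey where not called. GID1A, GID1B and the rest of the study's target list lie above 0, while most expansin and XTH genes lie near or below 0 without a call.

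MYBC1, a MYB-type transcription factor gene, rose most steeply among brighter named genes. It read 4.77, 12.7 and 5.51 in mock and 1510, 1275 and 1636 with DEX. Its log2 change was 7.30 ± 0.64 (adjusted p = 4.4e-05), a size that depends on the floor, where 2 of its mock arrays lay. BGLU45, of the beta-glucosidase family, read 50.9, 39.9 and 39.4 in mock and 519, 307 and 508 with DEX, a change of 3.33 ± 0.25 (adjusted p = 1.96e-05).

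Of the 12 steepest bright rises, 10 have only a locus in the annotation used. AT4G22640 went from 36.6, 14.2 and 7.48 to 1786, 709 and 1808, a change of 6.36 ± 0.66. AT4G25580 went from 13.8, 5.55 and 9.4 to 369, 225 and 278, by 4.82 ± 0.34. AT5G44050 was already bright in mock, at 329, 198 and 296, and reached 2107, 1381 and 1476, by 2.60 ± 0.18.

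AT1G64405 changed by 5.0 ± 0.25, AT3G58060 by 4.09 ± 0.64, AT1G30700 by 3.61 ± 0.59, AT4G13230 by 3.61 ± 0.60 and AT3G01830 by 3.42 ± 0.38. AT1G59660 changed by 3.02 ± 0.66, with the call lost without mock replicate 2, DEX replicate 1 or DEX replicate 3. AT1G28590 changed by 2.90 ± 0.69, and its call held only when mock replicate 3 was the array left out. In all 12 of these genes DEX replicate 2 had the lowest signal of the 3 DEX arrays. It was the lowest DEX array in 353 (68.5%) of the 515 rises and the highest in 78 (45.1%) of the 173 falls, against 32.3% and 33.2% of all probe sets, and without it 697 probe sets were called.

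**Figure D3:**
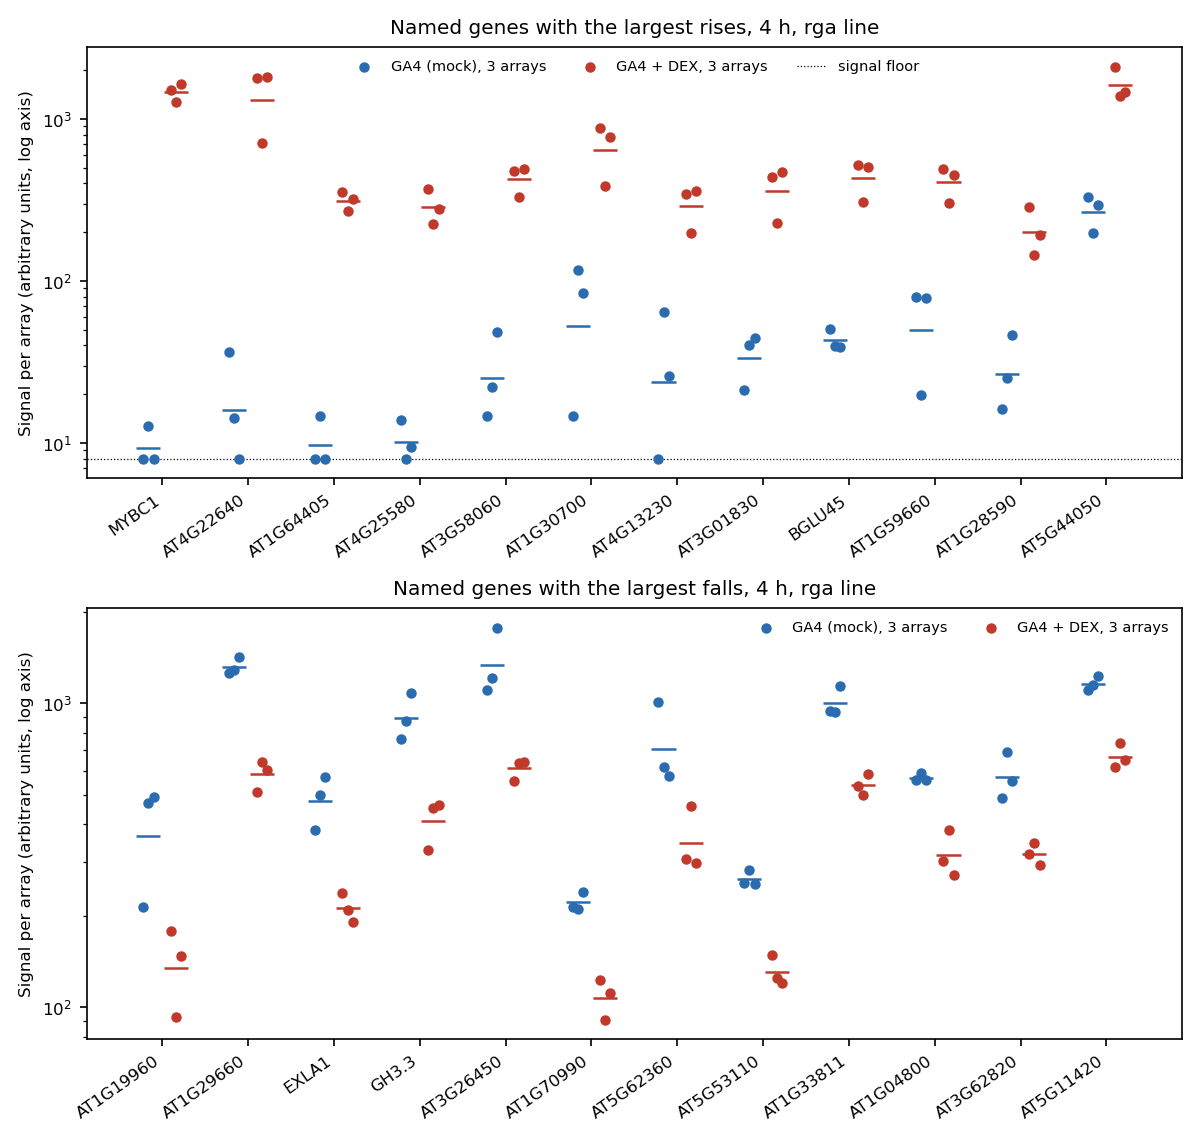
Signals of the 6 arrays at 4 h in the rga line (arbitrary units, log axis, values below 8 drawn at the floor of 8) for the 12 largest rises and 12 largest falls among named genes with a mean of at least 200 in the higher group. Points are arrays and bars are geometric means. Genes were picked only among those whose DEX arrays (red) do not overlap the mock arrays (blue), so that separation is built in.

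The listed cell wall and growth genes gave smaller changes than the steep rises. With 3.02% of all probe sets called, the counts called among them are too small to read as high or low. EXLA1, an expansin-like gene, read 383, 498 and 570 in mock and 238, 209 and 190 with DEX, a fall of 1.18 on the log2 scale (SE 0.23, adjusted p = 0.0154). Its groups were apart, but the call was lost without mock replicate 2, mock replicate 3 or DEX replicate 3. At 2 h the same gene read 1374 in mock and 1069 with DEX, both above its 4 h levels. Expansins loosen cell walls, and of 26 listed 15 were measured, 1 lower and none higher, with a median of -0.06 over all.

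Expansins that were not called ranged from -1.53 ± 0.69 for EXLA3 to 0.31 ± 0.48 for EXPB5. EXPA8 read 213, 201 and 344 in mock and 85.2, 160 and 192 with DEX, groups that did not overlap, with an adjusted p of 0.181. Among the XTH genes, whose enzymes cut and rejoin xyloglucan in the wall, 9 of 24 were measured, 1 was higher and the median was -0.32. XTH32 read 756, 732 and 799 in mock and 1183, 1220 and 1123 with DEX, a rise of 0.62 ± 0.08 (adjusted p = 0.000577). The GASA family, known as gibberellin-regulated small secreted proteins, had 6 of 14 members measured and none called, from -0.53 to 0.63 with a median of -0.20.

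Some other growth genes, chosen after their values were seen, also fell, while GH9B6, of the endoglucanase family, rose. THE1, a receptor kinase gene of wall sensing, read 599, 594 and 626 in mock and 332, 396 and 387 with DEX, -0.71 ± 0.10 (adjusted p = 0.00149). TBL45, of a family that adds acetyl groups to wall sugars, went from 828, 745 and 678 to 493, 516 and 541, -0.53 ± 0.10, with the call lost without DEX replicate 1. The family did not move one way: of 22 TBL genes measured 1 was lower and 1 higher, TBL18 at 0.55 ± 0.09, with a median of -0.02. Over all probe sets 0.761% were lower and 2.26% higher. RALFL33, the gene of a RALF-like signalling peptide, went from 1347, 1617 and 1666 to 910, 1010 and 1037, -0.64 ± 0.14, and its call held only with mock replicate 1 as the array left out. EXO, known for brassinosteroid-promoted growth, had groups apart at 3903, 4267 and 4379 against 2582, 2204 and 2726, a change of -0.74 ± 0.17 (adjusted p = 0.0308), and its call was lost without any 1 of the 6 arrays.

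The auxin genes measured did not move one way. GH3.3, whose enzyme joins auxin to amino acids, read 764, 872 and 1082 in mock and 329, 453 and 461 with DEX. With all DEX arrays below mock, its log2 change was -1.13 ± 0.17 (adjusted p = 0.00305). IAA20, of the Aux/IAA repressor family, rose from 11.8, 33.3 and 8.02 to 208, 103 and 220, by 3.51 ± 0.63 (adjusted p = 0.00942), a call lost when the 6 arrays were fitted alone. LBD16, a transcription factor gene known for auxin-driven lateral root formation, read 128, 90.8 and 63.4 in mock and 251, 208 and 230 with DEX, a change of 1.34 ± 0.28 whose call was lost without mock replicate 2, mock replicate 3, DEX replicate 1 or DEX replicate 3. Of 23 listed genes 8 were measured, 2 higher and 1 lower, with a median of 0.14. Over all probe sets 2.26% were higher and 0.761% lower, and 8 genes are too few to set against those shares.

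Among abscisic acid and dehydration genes 5 of 26 were measured and 1 was called. COR47, a dehydrin gene, rose from 1214, 805 and 788 to 2268, 2076 and 2075, by 1.22 ± 0.16 (adjusted p = 0.000842). COR15A, a cold-regulated gene, gave 1.01 ± 0.88 with overlapping groups and was not called. GI (GIGANTEA), the only clock or light gene measured of 21, rose from 541, 623 and 633 to 911, 899 and 969, by 0.63 ± 0.09 (adjusted p = 0.00215). No measured gene was called among 3 of rapid stress, 3 of trichome fate, 2 of cytokinin response and 1 of ethylene signalling. With 3.02% of all probe sets called, counts this small show nothing about those groups. The reference gene AT2G28390 gave 0.12 ± 0.10.

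BHLH101 had the largest called fall of any named gene. A transcription factor gene of the iron deficiency response, it read 53.3, 73.8 and 36.2 in mock and 9.64, 9.19 and 8.83 with DEX, a change of -2.50 ± 0.28 (adjusted p = 0.000295). All 3 DEX arrays lay just above the floor. At 2 h the gene was near the floor in both groups, at 6.80 in mock and 9.40 with DEX, so its 4 h mock arrays were the high ones of the rga line.

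AT2G05540 fell from 199, 194 and 196 to 67.6, 91.6 and 98, by 1.22 on the log2 scale (SE 0.20). AT3G50140 changed by -1.94 ± 0.37, with the call lost without DEX replicate 1. AT1G61590 read 38.3, 37.1 and 34.2 in mock and 13.0, 18.7 and 2.70 with DEX, -1.55 ± 0.33, and its call held only with DEX replicate 2 as the array left out and was lost with no floor.

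Among the 12 largest bright falls, 10 have only a locus. AT1G29660 read 1254, 1282 and 1424 in mock and 511, 641 and 605 with DEX, -1.18 ± 0.14 (adjusted p = 0.000498). AT3G26450 went from 1108, 1207 and 1773 to 556, 638 and 640, -1.13 ± 0.17. AT5G11420 went from 1103, 1149 and 1230 to 619, 738 and 651, -0.80 ± 0.10. These drops were well under those of the steep rises, whose mock signals were low.

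AT5G53110 changed by -1.02 ± 0.14, AT1G33811 by -0.89 ± 0.16, AT1G04800 by -0.85 ± 0.11 and AT3G62820 by -0.84 ± 0.12. AT1G19960 (-1.45 ± 0.34) kept its call only with mock replicate 1 left out, and AT1G70990 (-1.04 ± 0.23) lost it without any 1 of the 6 arrays. AT5G62360 (-1.03 ± 0.22) lost it without mock replicate 1, DEX replicate 1 or DEX replicate 3.

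Some enzyme genes that handle aldehydes or attach sugars rose, and those named here were chosen after their values were seen. ALDH7B4, an aldehyde dehydrogenase gene, read 959, 1066 and 1111 in mock and 3882, 3537 and 3883 with DEX, a rise of 1.85 ± 0.08 (adjusted p = 3.82e-07) between tight groups. UGT73C1, a glycosyltransferase gene whose product is known to act on cytokinins, went from 264, 210 and 185 to 796, 662 and 646, by 1.69 ± 0.25. UGT73B5, of the same superfamily, went from 66.8, 92.1 and 73.7 to 232, 248 and 211, by 1.58 ± 0.15. Across the 47 UGT genes measured 4 were higher and none lower (8.51%, against 3.02% called over all probe sets), with a median of 0.15.

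The other 2 higher UGT genes were UGT76E11 (0.72 ± 0.17), whose call was lost without any 1 of the 6 arrays, and UGT85A2 (0.61 ± 0.14), whose call was lost without mock replicate 1, mock replicate 2, DEX replicate 1 or DEX replicate 3. Among 8 ALDH genes 3 were called (37.5%, against 3.02% of all probe sets), a family looked at after the values were seen. Beside ALDH7B4 these were ALDH10A9 at 0.21 ± 0.04 and ALDH2C4, a gene of phenolic acid synthesis, at -0.41 ± 0.09. ALDH10A9 kept its call only with DEX replicate 2 as the array left out, and ALDH2C4 with that array or mock replicate 1. CYP71B26, a cytochrome P450 gene, went from 240, 323 and 356 to 1912, 1097 and 1628, by 2.32 ± 0.19.

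GSTU27, a glutathione transferase gene, fell from 1466, 1396 and 1648 to 859, 1104 and 1148, by 0.54 on the log2 scale (SE 0.10), with the call lost without mock replicate 3.

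Some transport and transcription factor genes and an endoglucanase gene, chosen in the same way, also rose, while the transcription factor gene BHLH101 fell. TMT1, a sugar transporter gene of the vacuole membrane, went from 644, 708 and 663 to 1876, 1490 and 1442, by 1.25 ± 0.11 (adjusted p = 5.26e-05). SAG29, which encodes the sugar transporter SWEET15, went from 498, 461 and 278 to 1139, 950 and 1114, by 1.41 ± 0.27, with the call lost without DEX replicate 1 or DEX replicate 3. Of the 14 genes under SWEET symbols, which leave out SAG29, none was called, with a median of -0.18. That count is too small to tell from the 3.02% called over all probe sets. WRKY6, a transcription factor gene known from senescence, went from 112, 235 and 157 to 492, 439 and 596, by 1.65 ± 0.24. GH9B6, of the endoglucanase family, was below the floor on all 3 mock arrays, at 5.54, 6.09 and 3.86, and read 143, 89.7 and 102 with DEX, at least 13.7-fold higher.

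The 2 h arrays of the rga line, which share no array with the 4 h comparison, give the same genes at an earlier time. The 2 h comparison had 583 calls (2.56%), of which 444 were rises (1.95%) and 139 falls (0.611%). The call count fell to 232 with the 2 h arrays alone and to 378 without DEX replicate 1 of that time. Of the 515 higher at 4 h, 285 were called higher at 2 h, which is 55.3% of the 4 h rises and 64.2% of the 2 h rises. Of the 173 lower at 4 h, 42 were called lower at 2 h, 24.3% of the 4 h falls and 30.2% of the 2 h falls. Both times went the same way in 490 (95.1%) of the 4 h rises and 157 (90.8%) of the falls, against 59.1% of all probe sets.

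MYBC1 changed by 6.79 ± 0.64 at 2 h and 7.30 ± 0.64 at 4 h, and GID1B by 1.5 ± 0.18 and 1.91 ± 0.18. ALDH7B4 went from 1.30 ± 0.08 to 1.85 ± 0.08, and BGLU45 from 1.66 ± 0.25 to 3.33 ± 0.25. GID1A was called at 4 h but not at 2 h (0.28 ± 0.11), and so were XTH32 (0.05 ± 0.08 at 2 h), AT1G04800 (0.23 ± 0.11), UGT73B5 (0.36 ± 0.15) and TMT1 (0.46 ± 0.11). SLY1 was called at 2 h, at 0.50 ± 0.12, and not at 4 h.

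None of these counts shows that the times differ. The test of the difference between the 4 h and 2 h effects called 0 probe sets by limma, with 1373 at an unadjusted p below 0.05. Other settings called from 0 to 10, the most when 32 was added to each signal instead of using the floor, and leaving out single arrays gave 0 to 8, the most without mock replicate 3 of 4 h.

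**Figure D4:**
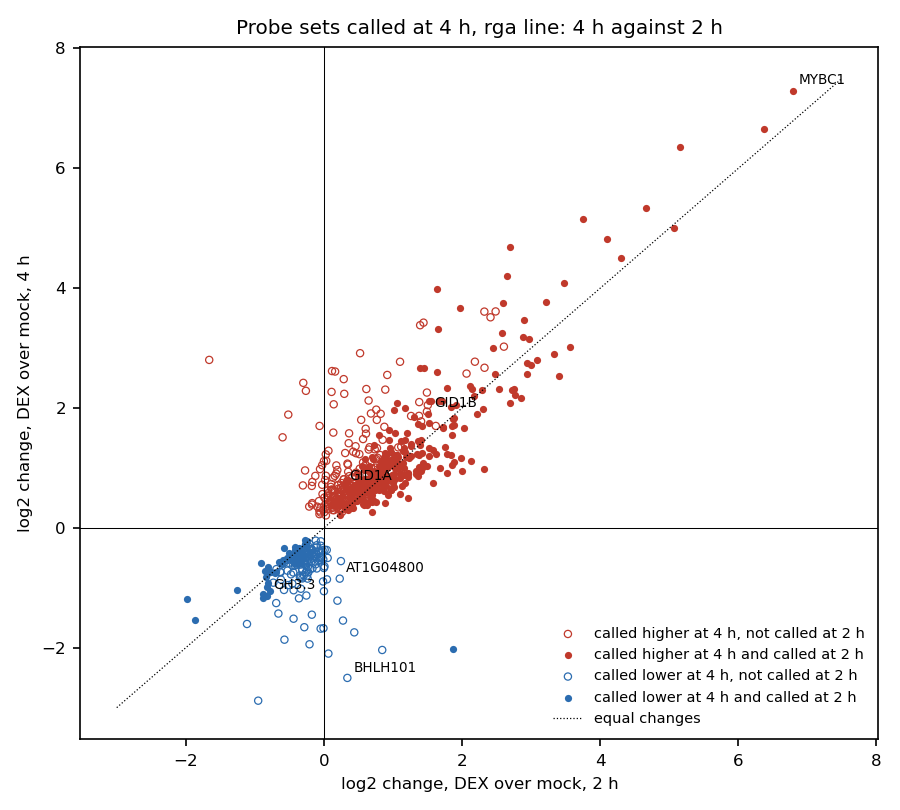
The 688 calls of the 4 h comparison are placed by their log2 change at 2 h and at 4 h, filled where also called at 2 h and open where not. MYBC1 lies near the line of equal changes at both times, and BHLH101 lies near 0 at 2 h.

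DEX also changed many genes in the vector line, where rga-delta17 is absent. There 8029 probe sets (35.3%) were called, 3085 higher (13.6%) and 4944 lower (21.7%). Of the probe sets higher at 4 h in the rga line, 432 were higher in the vector line too, which is 83.9% of the rga line's rises and 14% of the vector line's. A further 25 were lower there and 58 were not called. Of those lower in the rga line, 150 were lower in the vector line, 86.7% and 3.03%. These arrays are the 2 that stand apart with the high 25S ribosomal RNA control, and the part of that in the result was not tested. With arrays centred on their medians the shares were 484 of 554 rises (87.4%) and 125 of 155 falls (80.6%).

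Vector line changes were often the larger ones. The rga line's rises had a median of 1.55 in the vector line against 0.86 in the rga line, and its falls -1.68 against -0.58. The difference between the lines was called for 5019 probe sets (22.1%), with the log2 change higher in the rga line for 3211 (14.1%) and lower for 1808 (7.95%), a split of 64% higher that became 41.3% with arrays centred on their medians. Without DEX replicate 2 of the vector line the count was 3664. Of the 515 rises, 286 went further in the vector line, 163 were not called different, and 66 went further in the rga line, counting those that went the other way in the vector line. Of the 173 falls 124 went further in the vector line, 33 were not called different and 16 went further in the rga line, counted the same way. Under median centring 49 of 554 rises and 17 of 155 falls went further in the rga line, and under quantile normalization 62 of 540 and 17 of 215.

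**Figure D5:**
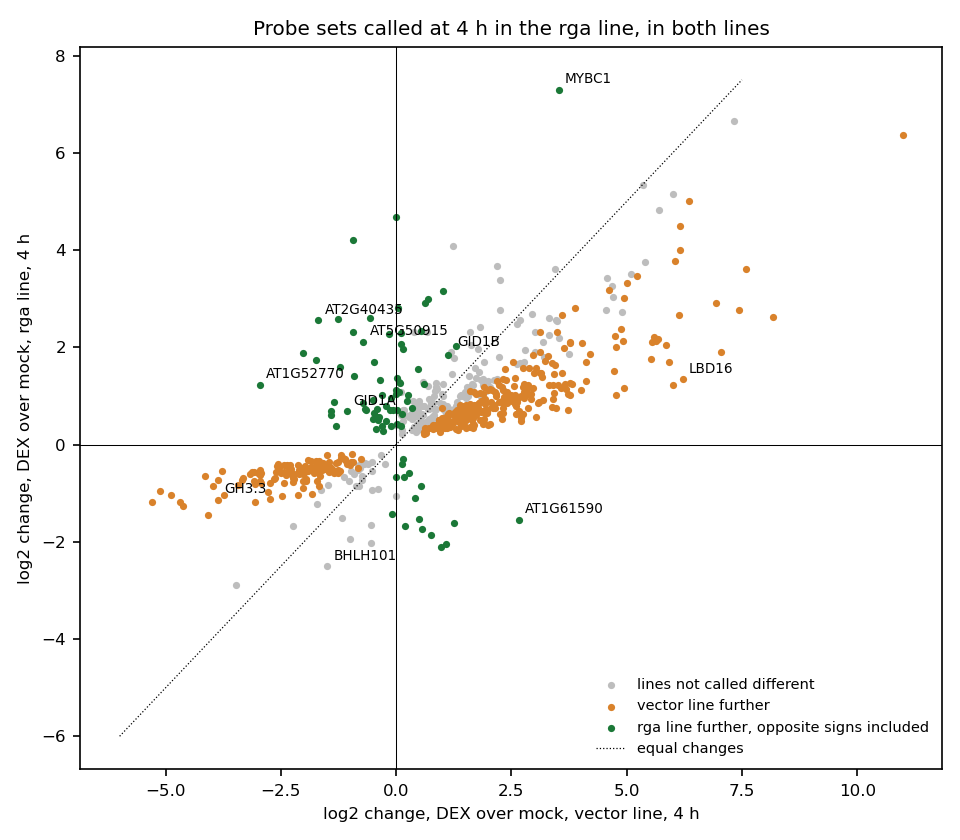
The 688 calls of the 4 h comparison are placed by their log2 change in the vector line and in the rga line. Orange points moved further in the vector line, green points moved further in the rga line or opposite to the vector line, and grey points were not called different. GID1A, AT5G50915, AT2G40435 and AT1G52770 lie left of 0, higher with DEX in the rga line and lower in the vector line.

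GID1A rose in the rga line and fell in the vector line, where it read 319 ± 35.2 in mock and 151 ± 18.9 with DEX (SD, n = 2), a log2 change of -1.08 ± 0.14. The 2 effects differed by 1.76 (adjusted p = 3.22e-05), a difference still called under quantile normalization, median centring and with each of the 10 arrays left out. GID1B rose in both lines, by 1.18 ± 0.22 in the vector line, and its difference of 0.72 was not called (adjusted p = 0.0888). Of the other putative targets, AT5G50915 gave -0.72 ± 0.21 in the vector line, XERICO -0.68 ± 0.17 and AT2G31730 -1.35 ± 0.18, opposite to their rises in the rga line. Their differences of 2.83, 1.42 and 2.22 were called under the same settings as that of GID1A. IQD22 rose further in the vector line, by 2.19 ± 0.20, a difference of -0.89 that was no longer called under quantile normalization (adjusted p = 0.0734) or without 5 of the 10 arrays.

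MYBC1 rose in the vector line too, from 99.5 ± 7.72 to 1144 ± 60.2 (SD, n = 2), by 3.53 ± 0.79. Its rise in the rga line went further by 3.77 (adjusted p = 0.0184), a difference lost without 3 of the 10 arrays. AT3G58060 gave 1.22 ± 0.79 in the vector line and was not called there, and the difference of 2.86 had an adjusted p of 0.0662. LBD16, COR47 and GI rose further in the vector line, by 6.22 ± 0.34, 1.89 ± 0.19 and 1.13 ± 0.11, with the difference called for LBD16 and GI but not for COR47 (adjusted p = 0.0775). GI lost that call without 6 of the 10 arrays.

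The falls of GH3.3, EXLA1, THE1, TBL45 and GSTU27 were deeper in the vector line, with the differences called. GH3.3 fell there from 2036 ± 257 to 140 ± 13.6 (SD, n = 2), a change of -3.86 ± 0.21, and EXLA1 from 437 ± 25.4 to 54.1 ± 22.1, -3.07 ± 0.28. THE1 gave -2.21 ± 0.12, TBL45 -2.10 ± 0.12 and GSTU27 -3.77 ± 0.13. BHLH101 gave -1.5 ± 0.34 in the vector line, and its difference of -1.01 was not called (adjusted p = 0.142) but was under quantile normalization (adjusted p = 0.0194). AT1G61590 went the other way in the vector line, 2.66 ± 0.40, from 6.78 in mock to 53.2 with DEX.

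Of the 66 rises that went further in the rga line, 25 were lower in the vector line by the same threshold. Another 34 passed it in neither direction there. Among the 515 rises, the 66 were no larger a share than the 14.1% of all probe sets with a higher change in the rga line. The 25 were a smaller share of the 515 than the 21.7% of all probe sets that fell with DEX there. These 66 are therefore not shown to be a group particular to the rga line's rises. The genes named here from that group were chosen after their values were seen. AT2G40435 read 24, 29.3 and 41.1 in mock and 213, 151 and 181 with DEX in the rga line, a rise of 2.55 ± 0.36, and gave -1.69 ± 0.44 in the vector line. The size of that fall depends on the floor: the vector line mean was 26.9 in mock and 3.93 with DEX, with 2 of 2 DEX arrays below it. AT1G52770 went from 106, 98.4 and 122 to 287, 259 and 221, by 1.23 ± 0.23, with the call lost without DEX replicate 1, with no floor and under quantile normalization, and gave -2.96 ± 0.28 in the vector line. There its mean was 84.4 in mock and 8.79 with DEX, with 1 of 2 DEX arrays below the floor, so the size of this fall also depends on the floor. AT5G52450 went from 862, 995 and 853 to 1624, 1399 and 1218, by 0.64 ± 0.09, and gave -0.48 ± 0.12.

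SAG29 and UGT76E11 also fell in the vector line, by values of -0.92 ± 0.33 and -0.66 ± 0.21. UGT73C1 was not called there at -0.49 ± 0.31, and the difference from the rga line was 2.17 (adjusted p = 0.0018). ALDH7B4 rose in both, by 1.12 ± 0.10 in the vector line, and further in the rga line by 0.73 (adjusted p = 0.00142). AT1G14580, which read 249, 274 and 224 in mock and 752, 649 and 782 with DEX, rose by 1.55 ± 0.11 and by 0.47 ± 0.14 in the vector line, a difference of 1.08.

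AT5G10120 went from 2.47, 23.3 and 6.64 to 89.3, 68.7 and 104, by 2.91 ± 0.38, and gave 0.62 ± 0.47 in the vector line. With 2 of its rga line mock arrays below the floor, the size of its rise depends on the floor. At 2 h AT5G10120 read 34.1 in mock and 48.6 with DEX, a change of 0.52 ± 0.38 that was not called. The difference of 2.29 between the lines was lost without 2 of the 10 arrays. UND, below the floor on all 3 mock arrays of 4 h, read 40.9, 69.6 and 61.1 with DEX, at least 6.98-fold higher, and gave 0.05 ± 0.55 in the vector line. The vector line mean was 3.71 in mock, with 2 of 2 arrays below the floor, and 6.42 with DEX, with 1 of 2 below. That vector line change and the difference between the lines therefore depend on the floor. At 2 h UND went the other way without a call, from 45.7 in mock to 17.4 with DEX.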

How the data were processed

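Shoot RNA was measured on 16 single-colour Affymetrix ATH1 arrays, 1 per sample. Each deposited value is an untransformed intensity of a probe set. The authors used MAS5 to make these intensities, according to the processing notes of the submitters, with no version given. The arrays already shared a 2% trimmed mean of 500.05, and that scaling was kept. The number of arrays limits the precision.

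Of 22810 probe sets, 64 AFFX controls were left out. Signals below 8 were raised to 8 and log2 was taken. One linear model was fitted to all 16 arrays (limma 3.58.1 in R 4.3.3, lmFit and eBayes with a mean-variance trend), 1 mean per group (6 groups, 10 residual degrees of freedom), and p-values were adjusted by Benjamini-Hochberg over 22746 probe sets. The SE of a log2 change comes from this model. Comparisons were DEX against mock at 4 h and 2 h in the rga line and at 4 h in the vector line, and the differences of these effects between times and between lines. On simulated data over 22746 probe sets the 4 h comparison found 10%, 50%, 70% and 88% of simulated log2 changes of size 0.5, 1, 2 and 3. It changed 50 probe sets per size, and 12 unchanged probe sets were also called. The simulated noise was normal, without the floor, and no other group differed, so these shares need not hold for the real arrays.

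The platform's table gives a single gene to 13513 probe sets, more than 1 to 503 and no gene to 8730. Symbols follow RefSeq (assembly TAIR10.1), where 13436 had a locus. Where a gene had several probe sets, the brightest was used. Named genes were, among called probe sets with 1 gene and groups that did not overlap, the 12 largest rises and 12 largest falls with a mean of at least 200 in the higher group, the 5 largest each way at any level, up to 6 called members of each gene list, and every measured gibberellin gene. The 18 gene lists, the members and the tests were chosen with earlier results of these data known. Further genes named were chosen after their values were seen, as the text says. Expression of the transgene was not analysed here.

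Replicate numbers in the titles recur across groups. Deviations of same-numbered mock and DEX arrays at 4 h correlated at 0.067, -0.177 and 0.373, so the numbers were not taken to pair the samples. Alternatives were no floor, an offset of 32, quantile normalization, centring on array medians, leaving out the dimmest 25% or 50%, no trend, fewer arrays in the fit, a replicate block, stricter thresholds and each replicate left out.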

Additional observations from a re-analysis of the deposited data

Results flagged for a closer look

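The 4 h DEX effect of the rga line was called different from that of the vector line for 5019 probe sets, by the test of the difference itself. Among genes of gibberellin perception and the study's target list, the log2 change was higher in the rga line by 1.76 for GID1A, 2.83 for AT5G50915, 1.42 for XERICO and 2.22 for AT2G31730, and lower by a value of -0.89 for IQD22. Among the bright rises it was higher by 3.77 for MYBC1, and the difference was -4.64 for AT4G22640, -1.35 for AT1G64405, -3.98 for AT4G13230, -1.68 for BGLU45 and -4.04 for AT1G28590, where the vector line rose further.

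Among the bright falls a positive difference means that the vector line fell further. It was 2.62 for AT1G19960, 3.52 for AT1G29660, 1.90 for EXLA1, 2.73 for GH3.3, 1.62 for AT3G26450 and 1.1 for AT1G70990. It was 3.85 for AT5G62360, 0.81 for AT5G53110, 1.12 for AT1G33811, 0.84 for AT3G62820 and 1.94 for AT5G11420. AT1G61590, at -4.21, fell in the rga line and rose in the vector line. LBD16 gave -4.87 and GI -0.50.

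Among genes chosen after their values were seen, the rga line's change was higher for AT2G40435 (4.24), AT1G52770 (4.19), SAG29 (2.33), AT5G52450 (1.12), UGT76E11 (1.38), UGT73C1 (2.17), ALDH7B4 (0.73), AT1G14580 (1.08), AT5G10120 (2.29) and UND (2.76). The vector line rose further for UGT73B5 (-1.46), GH9B6 (-2.26), AT1G05577 (-1.94) and IQD30 (-1.17), and fell further for ALDH2C4 (0.66), RALFL33 (1.02), THE1 (1.5), EXO (0.97), TBL45 (1.57) and GSTU27 (3.23). The sizes for AT2G40435, AT1G52770, AT5G10120, UND, GH9B6 and AT1G05577 depend on the floor, where some of their arrays lay.

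Under quantile normalization the difference was no longer called for BGLU45 (adjusted p = 0.149), AT1G28590 (0.0537), AT1G70990 (0.377), AT5G53110 (0.138), AT1G33811 (0.0546), AT3G62820 (0.136), IQD22 (0.0734) and UND (0.0537). With single arrays left out the difference was lost without 9 of the 10 arrays for AT1G70990 (adjusted p up to 0.167), 6 for GI (0.143), 5 for AT1G64405 (0.0875) and IQD22 (0.12), and 3 for MYBC1 (0.064). It was lost without 2 for AT1G28590 (0.0942), AT5G53110 (0.0964), AT5G10120 (0.0697) and EXO (0.0761), and without 1 for BGLU45 (0.0634). Under median centring it was no longer called for AT1G70990 (0.123), AT5G53110 (0.0886), AT3G62820 (0.0536), ALDH2C4 (0.0641) and EXO (0.0571). The vector line's DEX arrays are the 2 with the raised 25S ribosomal RNA control, and its part in these differences was not tested.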

How the results depend on the processing

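Of the 688 probe sets called at 4 h, 207 kept the call when the 6 arrays were fitted alone (247 calls, fewer degrees of freedom) and 336 had an adjusted p below 0.01. Leaving out each replicate gave 395 to 697 calls at 4 h, 378 to 508 at 2 h, 6171 to 6962 in the vector line, 3664 to 4921 for the difference between lines and 0 to 8 for the difference between times. At 2 h the arrays alone gave 232 and an adjusted p below 0.01 gave 285. The difference between times had 6 calls with no floor, 10 with the offset, 2 with quantile normalization, 3 with median centring and 8 without the dimmest 25% or 50%. At an adjusted p below 0.01 the lines differed for 3152. The replicate numbers, taken as a replicate block, gave 484 calls at 4 h (424 shared) and 383 at 2 h, where the numbers are shared but the samples are not shown to be paired; 20 of the 66 calls described lost theirs under the block, among them IAA20, EXLA1, LBD16, SAG29 and AT1G52770. Rises made up 74.9% of the 4 h calls and 66.9% to 81.4% under other fits at the same threshold. In the vector line rises were 38.4% as deposited, 44.7% with quantile normalization and 59.3% with median centring, where the median of all probe sets was -0.09, 0 and 0.18. Of 39 called genes named by the rule, 18 kept their call under all alternatives but the 2 stricter thresholds, none turned, and 10 lost it without at least 1 array. Uncalled values turned for SLY2 (-0.01 to 0.29 over all alternatives, turning without mock replicate 3) and GID1C (-0.17 to 0 over all alternatives, turning without DEX replicate 1). The causes were not tested.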

Other observations

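Called probe sets were more frequent among bright ones, and dim ones needed larger changes. Of the 4550 dimmest by mean level 0.418% were called at 4 h, and of the 4549 brightest 6.13%. The rises had a median fold of 4.98 among the former and 1.55 among the latter.

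Gene families taken by symbol stem after the data were seen gave few calls at 4 h. No member was called among 29 genes with SCPL symbols and 14 with BZIP symbols, counts too small to tell from the 3.02% called over all probe sets. IQD genes, of a calmodulin-binding family, had 2 of 15 higher (13.3%), against 2.26% of all probe sets. These were IQD22 and IQD30, which read 374, 259 and 423 in mock and 749, 592 and 749 with DEX, a rise of 1.01 ± 0.17. In the vector line IQD22 rose by 2.19 ± 0.20 and IQD30 by 2.18 ± 0.21. Of 69 probe sets of plastid-encoded genes none was called, against 3.02% of all probe sets, with log2 changes from -0.56 to 0.46.

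AT1G05577 read 8.45, 3.44 and 4.08 in mock and 94.7, 46.4 and 64.8 with DEX at 4 h, a rise of 3.01 ± 0.27 that was 3.56 ± 0.27 at 2 h. AT5G61620 went from 50.2, 73.2 and 40.9 to 247, 171 and 187, by 1.91 ± 0.39, with the call lost without mock replicate 1, mock replicate 3, DEX replicate 1 or DEX replicate 3. A probe set unnamed here was called in opposite directions at the 2 times: it read 18.9, 37 and 52 in mock and 3.21, 8.57 and 6.28 with DEX at 4 h (-2.02 ± 0.43, adjusted p = 0.0237), and changed by 1.87 ± 0.43 at 2 h. The difference between its times was not called (adjusted p = 0.0898), and its 4 h call held only with mock replicate 1 as the array left out.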
